A study of Mus musculus with 6 samples.

Results

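The gonadotropin and prolactin receptors are the proteins through which ovarian cells receive follicle-stimulating hormone (FSH), luteinizing hormone (LH) and prolactin. Their genes are Fshr, Lhcgr and Prlr, and a probe set was taken where the array's annotation gives 1 of these symbols. That held for 1 probe set of 45101, a probe set of Fshr (Entrez 14309), so that 1 of the 18193 genes with a probe set of their own entered. Lhcgr and Prlr were not analysed here, because the annotation used names 0 probe sets for either. The results therefore describe Fshr, and beside it the genes that act with and below these receptors.

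FSH and LH bind receptors of the glycoprotein hormone family, which join a large leucine-rich domain outside the cell to a serpentine membrane domain. Both couple to the stimulatory G protein Gs, so that adenylyl cyclase makes cyclic AMP and protein kinase A (PKA) is activated. In the ovary Fshr is expressed by granulosa cells, the somatic cells around the oocyte, and FSH drives their growth and estrogen synthesis and induces Lhcgr. The prolactin receptor is a class I cytokine receptor and signals through the kinase Jak2 and the transcription factors Stat5a and Stat5b. In rodents prolactin maintains the corpus luteum.

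The 6 arrays carried RNA of 3 tumors of granulosa cells, taken from mice labelled Smad1/5/8 mutant, and of 3 samples of granulosa cells isolated from C57BL/6J;129S5/SvEvBrd females. Those females were 21 days old, had been primed with pregnant mare serum gonadotropin (PMSG) for 44 to 46 hours, and were pooled by 2 to 3 per sample. The tumors were untreated and had been kept in a storage solution before RNA extraction. No source used here gives the strain, sex or age of the tumor mice, how the Smad genes were mutated or in which cells. PMSG acts on the FSH receptor and was given to the wild-type mice alone. Priming, genotype, storage, signal software and the step between isolated cells and whole tumor therefore cannot be told apart in any comparison below. The labels do not say that the samples of a group came from separate animals or pools, so p-values measure only the spread between these samples, which may be technical. Each array had a trimmed mean signal of 500 and between 22565 and 25013 probe sets at a signal of 100 or more, and 3 arrays per group limit the precision of every value. The log2 ratio of 3' to 5' Actb controls, a sign of RNA integrity, was 0.81 ± 0.21 in tumors and 0.45 ± 0.19 in wild-type cells, and that of Gapdh was -0.36 ± 0.11 in tumors and -0.39 ± 0.07 in wild-type cells (SD, n = 3 each).

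Fshr lies on mouse chromosome 17 (GRCm38.p6, bases 88984952 to 89200675, minus strand), next to Lhcgr in RefSeq order. The region around its start is shown because, in rodents, the Fshr promoter is known for an E-box bound by the factors Usf1 and Usf2, whose signals are given further on. The RefSeq window runs from 250 bases before the start of transcription to 50 bases after it (chr17:89200626-89200925, minus strand, GRCm38.p6), and the capitals mark the E-box CACGTG.
Fshr promoter: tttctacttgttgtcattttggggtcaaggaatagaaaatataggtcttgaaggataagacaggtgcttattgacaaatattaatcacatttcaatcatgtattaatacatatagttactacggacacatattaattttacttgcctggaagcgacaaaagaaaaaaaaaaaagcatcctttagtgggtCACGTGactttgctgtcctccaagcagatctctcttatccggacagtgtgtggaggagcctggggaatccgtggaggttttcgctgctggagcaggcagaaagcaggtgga

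The CACGTG match lay 61 to 56 bases before the start, and 7.15% of 32851 such windows of mouse genes held these letters. The looser E-box CANNTG, which takes in CACGTG, matched 3 times in the Fshr window and at least once in 72.3% of all windows. GATAA, a motif of Gata factors, matched 2 times, once per strand, and was found in 25.4% of all windows. GGGCGG (35.7% of windows), the Nr5a1 motif AAGGTCA (4.72%), the cyclic AMP response motif TGACG (20.8%) and the Stat motif TTCNNNGAA (8.3%) had 0 matches on either strand. These are matches of letters, not measured binding.

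Fshr was far lower in the tumors. Its signals were 1033, 721 and 248 in tumor replicates 1, 2 and 3, against 5739, 6135 and 5185 in wild-type replicates 1, 2 and 3. All 3 tumors lay below all 3 wild-type samples, and all 6 signals lay above 101, the highest signal of 27 bacterial control probe sets outside the hybridisation mix. The mean signal was 667 ± 395 in tumors and 5686 ± 477 in wild-type cells (SD, n = 3 each), which put the tumor mean at 11.7% of the wild-type mean. On the log2(signal + 32) scale Fshr fell by 3.23 (SE 0.45, 95% interval -4.30 to -2.17, limma adjusted p = 0.0036). Of the 11611 genes tested, 12.6% were called lower in tumors and 14.5% higher at a limma adjusted p under 0.05, and 38 had a lower log2 fold change than Fshr. The share with all tumors below all wild-type samples was 22.6%, and the share with all tumors above was 23.7%. When every one of 24168 probe sets was tested, 11.9% were called lower and 11.1% higher, and the Fshr probe set had a limma adjusted p of 0.004. A 2-sided exact permutation test of the 3 tumor against the 3 wild-type signals gave p = 0.1, the smallest it can give. In a bulk sample, fewer granulosa cells and less Fshr RNA per cell cannot be told apart.

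The tumors also differed among themselves. Tumor replicates 1, 2 and 3 held 18.2%, 12.7% and 4.36% of the wild-type mean. The highest signal was 4.17 times the lowest among tumors and 1.18 times among wild-type samples. The SD of log2(signal + 32) was 1.00 in tumors and 0.12 in wild-type cells (n = 3 each). The tumor SD of Fshr exceeded that of 97.7% of the genes tested, and its wild-type SD exceeded that of 29.0%. Between the groups a gap remained, since the lowest wild-type signal was 5.02 times the highest tumor signal.

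**Figure D1:**
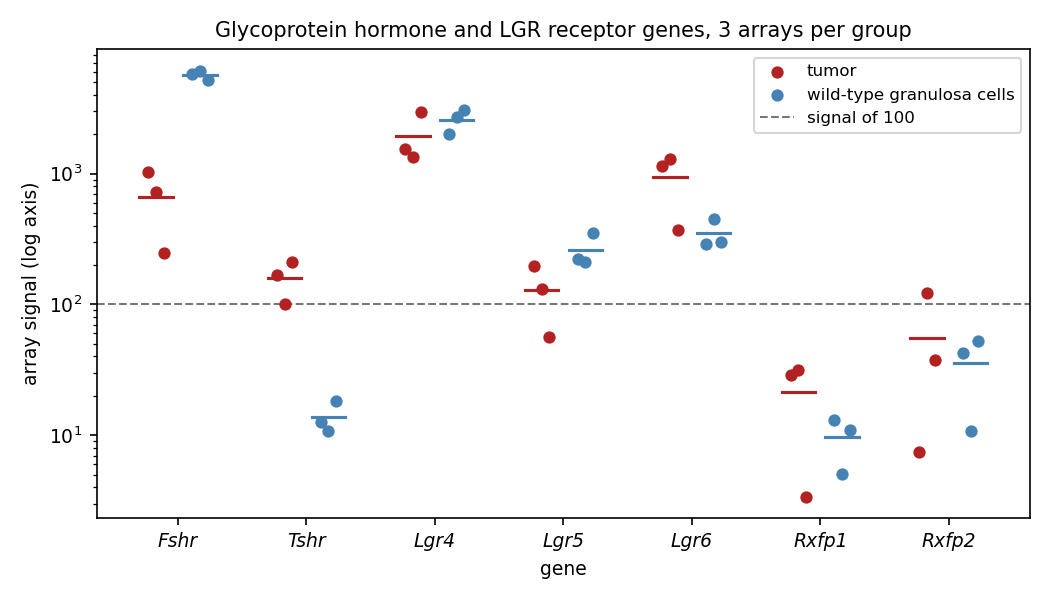
Array signal (log axis) of Fshr and 6 other receptor genes of the glycoprotein hormone and LGR family, with 3 tumor arrays (red, left) and 3 wild-type arrays (blue, right) per gene and a bar at each mean; the dashed line is a signal of 100. Fshr lies at 248 to 1033 in tumors and at 5185 to 6135 in wild-type cells, and Tshr lies above 100 in tumors only.

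The relatives of Fshr showed no common direction. The annotation names 7 genes of the family, of which 5 passed the filter of a signal of 100 on 3 arrays: Fshr was lower, Tshr higher and 3 were not called. Among all genes tested 14.5% were higher and 12.6% lower. With arrays scaled to the hybridisation controls, the family counts were 1 higher and 3 lower. That scaling gave 416 higher and 7544 lower of all 11611 genes tested. Tshr, the receptor of thyroid-stimulating hormone, read 169, 101 and 210.3 in tumors and 12.6, 10.7 and 18.2 in wild-type cells, at least 1.53-fold higher (limma adjusted p = 0.00176). The bound arises because every wild-type signal lay below 100. Lgr4, Lgr5 and Lgr6, which encode R-spondin receptors, were not called with all samples. Lgr4 read 1547, 1341 and 2937 in tumors and 1998, 2717 and 3052 in wild-type cells (limma adjusted p = 0.3). Lgr5 read 198, 131 and 56.6 in tumors and 222, 213 and 352 in wild-type cells, all tumors lower (log2 fold change -0.95, SE 0.36, limma adjusted p = 0.0933). Lgr6 read 1145, 1285 and 372 in tumors and 292, 452 and 302 in wild-type cells, with overlap (limma adjusted p = 0.089). Omitting tumor replicate 3 brought Lgr4 and Lgr6 past the threshold (limma adjusted p = 0.0399 and 0.00407), and omitting tumor replicate 1 did so for Lgr5 (0.0413). The relaxin-family receptor genes Rxfp1 and Rxfp2 had at most 1 array above 100 and were not tested.

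The hormone genes gave little signal. Fshb, Lhb, Tshb and Prl, the genes of the beta subunits of FSH, LH and thyroid-stimulating hormone and of prolactin, lay below 100 on all 6 arrays. Cga, which encodes the alpha subunit that these glycoprotein hormones share, read 93.4, 118 and 106 in tumors and 18.8, 9.5 and 11.9 in wild-type cells. Those groups did not overlap, but Cga passed 100 on 2 arrays and was not tested. Gpha2, which encodes a related alpha subunit, read 235, 28.9 and 252 in tumors and 85.1, 32.5 and 136 in wild-type cells and was not called (limma adjusted p = 0.499).

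Granulosa genes as a whole did not fall as far as Fshr. Of 13 tested granulosa markers 2 rose, 4 fell and 7 were not called, beside 14.5% higher and 12.6% lower of all genes tested. The markers had a median log2 fold change of -0.43 beside -0.0049 over all genes tested. Hybridisation-control scaling gave 1 higher and 10 lower of the 13, beside 416 higher and 7544 lower of all 11611 genes tested. Foxl2, a transcription factor that maintains granulosa identity, read 8633, 7565 and 6439 in tumors and 11642, 9843 and 10542 in wild-type cells, all tumors lower, and was not called (log2 fold change -0.51, SE 0.16, limma adjusted p = 0.0583). Inhbb, an activin subunit gene, read 1710, 2436 and 2272 in tumors and 30472, 32196 and 37533 in wild-type cells and fell by 3.96 (SE 0.18). Amh, the gene of anti-Müllerian hormone, read 2980, 2209 and 2190 in tumors and 456, 1658 and 253 in wild-type cells. It was called higher by 2.00 (SE 0.59, limma adjusted p = 0.0443), and omitting any sample other than wild-type replicate 2 ended that call (limma adjusted p up to 0.133). Gatm, a creatine synthesis gene, rose by 1.41 (SE 0.20). The summed signal of the 13 markers was 128906 to 134399 in tumors and 186251 to 215675 in wild-type cells.

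Fshr was then set against each marker within arrays, a comparison chosen after the values were seen. For 12 of 13 markers the log2 difference of Fshr minus the marker was lower in all 3 tumors than in all 3 wild-type samples. The exception was Inhbb, with overlapping groups and a difference of 0.72 between the changes (2-sided exact permutation p = 0.4). For the other 12 the change of Fshr minus that of the marker ran from -5.23 (Amh) to -2.05 (Hsd17b1), with an exact permutation p of 0.1 each, the smallest possible. Relative to the mean of the 13 markers, Fshr stood at -2.51, -2.79 and -4.26 in tumor replicates 1, 2 and 3 and at -0.26, -0.29 and -0.43 in wild-type replicates 1, 2 and 3. These groups did not overlap and differed by -2.86 (exact permutation p = 0.1). A common scaling of an array cancels in this difference, apart from the added 32. Of all 11611 genes tested, 38 had a lower log2 fold change than Fshr, so a lower mean difference holds against nearly every gene. Such differences are therefore not particular to granulosa markers.

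**Figure D2:**
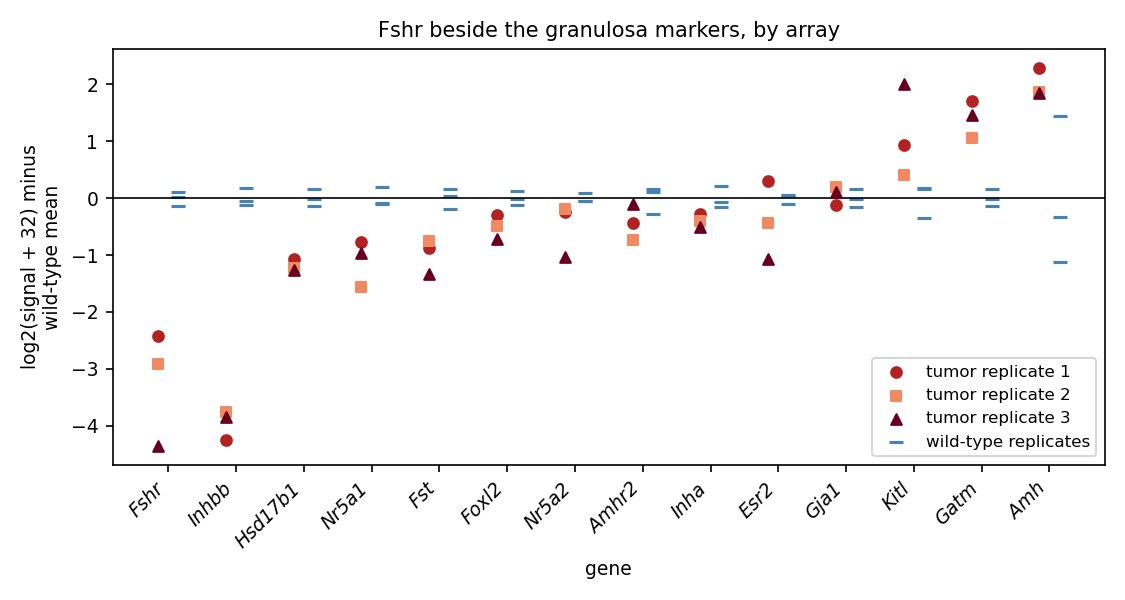
log2(signal + 32) of Fshr and 13 granulosa markers minus the wild-type mean of each gene, with the 3 tumors as red and orange symbols (left) and the 3 wild-type samples as blue dashes (right). Fshr spreads widely between tumors and lies below the 12 markers other than Inhbb in each tumor; it lies above Inhbb in tumor replicates 1 and 2 and below it in tumor replicate 3.

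Markers of other cells differed between the same samples, and their part in the Fshr difference was not tested. Called higher in tumors were 10 of 10 tested macrophage markers, 10 of 10 smooth muscle and pericyte markers, 9 of 10 fibroblast markers (1 was lower) and 6 of 10 endothelial markers. The shares over all genes tested were 14.5% higher and 12.6% lower. Scaling to the hybridisation controls gave 6 higher and 0 lower for macrophage and 8 higher and 0 lower for smooth muscle markers. It gave 6 higher and 1 lower for fibroblast and 4 higher and 0 lower for endothelial markers. Of all 11611 genes tested, 416 were higher and 7544 lower under that scaling. Summed macrophage signals were 13847 to 16651 in tumors and 2201 to 2782 in wild-type cells. Smooth muscle markers summed to 20455 to 37748 in tumors and 5578 to 7112 in wild-type cells. Fibroblast markers summed to 47233 to 70595 in tumors and 23272 to 27176 in wild-type cells, and endothelial markers to 6423 to 13595 in tumors and 2065 to 2675 in wild-type cells. Adipocyte markers summed to 822 to 28288 in tumors and 248 to 286 in wild-type cells. Of 2 tested adipocyte markers 1 was higher, Fabp4, a fatty acid binding protein gene, which read 12178, 746 and 18320 in tumors and 85.8, 156 and 85.8 in wild-type cells (log2 fold change 5.34, SE 1.09, limma adjusted p = 0.0129). Retn, an adipocyte hormone gene, read 1912, 14 and 1450 in tumors and 149, 87 and 94.5 in wild-type cells and was not called with all samples but was without tumor replicate 2 (limma adjusted p = 0.000983). Adipoq, another such gene, read 8446, 52.6 and 8410 in tumors and 2.1, 25.3 and 17.8 in wild-type cells and was not tested, with 2 arrays above 100. Of 3 tested lymphocyte markers 2 were higher, Ptprc (log2 fold change 2.50) and Igj (named Jchain on the array, 3.15). Cd8a was not called (log2 fold change -0.33, limma adjusted p = 0.506). Cd3e, which defines T cells, lay below 100 on all arrays. Leaving out tumor replicate 3 or any 1 wild-type sample ended the Igj call (limma adjusted p up to 0.122) and left that of Ptprc.

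Of 6 tested oocyte markers 5 were lower, and for this and the next 2 lists the shares over all genes tested were 14.5% higher and 12.6% lower. The lower count of oocyte markers was 2 to 5 with 1 sample omitted, fewest without wild-type replicate 1 or 2 at 2 each. Oocyte markers summed to 432 to 804 in tumors and 1157 to 1805 in wild-type cells, and Bmp15 and Nobox lay below 100 on all arrays. Of 8 tested epithelial markers 1 was lower and 7 were not called, and that 1 call (Upk3b, a mesothelial gene) ended without tumor replicate 2 or 3 or wild-type replicate 2 or 3 (limma adjusted p up to 0.11). Of 5 tested Sertoli markers Ptgds was higher, Dhh lower and 3 were not called, namely Sox9, Rhox5 and Cldn11. All tumors lay below all wild-type samples for 2 of the 5 and above them for 2, beside 22.6% and 23.7% of all genes tested. Rhox5 had a log2 fold change of -1.325 (limma adjusted p = 0.0879) and Cldn11 of -0.11 (limma adjusted p = 0.848). Sox9, the transcription factor that directs Sertoli cell fate, read 154, 232 and 189 in tumors and 43.9, 8.8 and 140.4 in wild-type cells, all tumors higher (log2 fold change 1.45, SE 0.48, limma adjusted p = 0.0624). Sox9 was not called, except under quantile normalization, with a pseudocount of 100 and without wild-type replicate 3 (limma adjusted p = 0.0125 in the last). Sox8 and Dmrt1, which also mark Sertoli cells, lay below 100 on all arrays. The Dhh call ended without tumor replicate 2 or wild-type replicate 1 or 2 (limma adjusted p up to 0.0795).

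LH acts on theca and luteal cells as well as on mature granulosa cells. Of 11 tested theca, interstitial and luteal markers 3 were higher, 3 lower and 5 not called, beside 14.5% higher and 12.6% lower of all genes tested. Scaling to the hybridisation controls gave 2 higher and 5 lower of the 11, beside 416 higher and 7544 lower of all 11611 genes tested. Cyp17a1, the androgen-synthesis enzyme of theca cells, read 289.9, 101 and 29.4 in tumors and 5950, 2179 and 4717 in wild-type cells, all tumors lower (log2 fold change -4.85, SE 0.62, limma adjusted p = 0.00261). Gli1, a transcription factor of hedgehog signalling, read 800.3, 636 and 477 in tumors and 49.2, 69.1 and 30.9 in wild-type cells, at least 6.24-fold higher. The summed signals of this list overlapped, at 38857 to 93954 in tumors and 78538 to 95349 in wild-type cells.

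Genes of Gs, adenylyl cyclase and PKA, which carry the gonadotropin signal inward, were called higher more often than lower. Of 22 tested, 9 rose, 1 fell and 12 were not called, beside 14.5% higher and 12.6% lower of all genes tested. Their median log2 fold change was 0.49, beside -0.0049 over all genes tested. Scaling to the hybridisation controls turned the list counts to 1 higher and 7 lower. That scaling gave 416 higher and 7544 lower of all 11611 genes tested. The higher count of the list at a common trimmed mean was 3, 4 and 7 without tumor replicates 1, 2 and 3. It was 2, 3 and 4 without wild-type replicates 1, 2 and 3. In these fits 866 to 1704 of all 11611 genes tested were higher. Prkar1b, a regulatory subunit of PKA best known from neurons, read 2124, 3772 and 875 in tumors and 128, 239 and 84.2 in wild-type cells (log2 fold change 3.51, SE 0.54, limma adjusted p = 0.00469). All tumors lay above all wild-type samples. Prkar2b, the regulatory subunit that FSH induces in granulosa cells, read 7670, 6378 and 15761 in tumors and 17436, 16650 and 18616 in wild-type cells. All tumors lay below, with tumor replicate 3 close to the wild-type samples, and Prkar2b was not called (log2 fold change -0.93, SE 0.32, limma adjusted p = 0.0714), whereas it was called with tumor replicate 3 omitted (0.00347). Gnas, which encodes the alpha subunit of Gs, read 19129, 20680 and 17992 in tumors and 13583, 15060 and 14834 in wild-type cells and was not called (limma adjusted p = 0.0648). Among adenylyl cyclase genes Adcy7 was higher by 1.59 (SE 0.35) and Adcy5 by 1.03 (SE 0.29). The Adcy7 call ended with wild-type replicate 1 or 2 omitted (limma adjusted p = 0.0596 and 0.0533), and that of Adcy5 with any sample but tumor replicate 3 omitted (up to 0.102). Akap7, which encodes an anchoring protein of PKA, read 569, 557 and 592 in tumors and 1134, 1210 and 1139 in wild-type cells and fell by 0.98 (SE 0.13). Under scaling to the hybridisation controls Adcy5, Adcy7, Arrb1, Csf2rb, Gatm, Igf1, Nr2f2, Ptpn1, Rgcc, Tec and Vav2, all named here as higher, were no longer called, and the sign of Igf1 turned (log2 fold change -0.06).

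**Figure D3:**
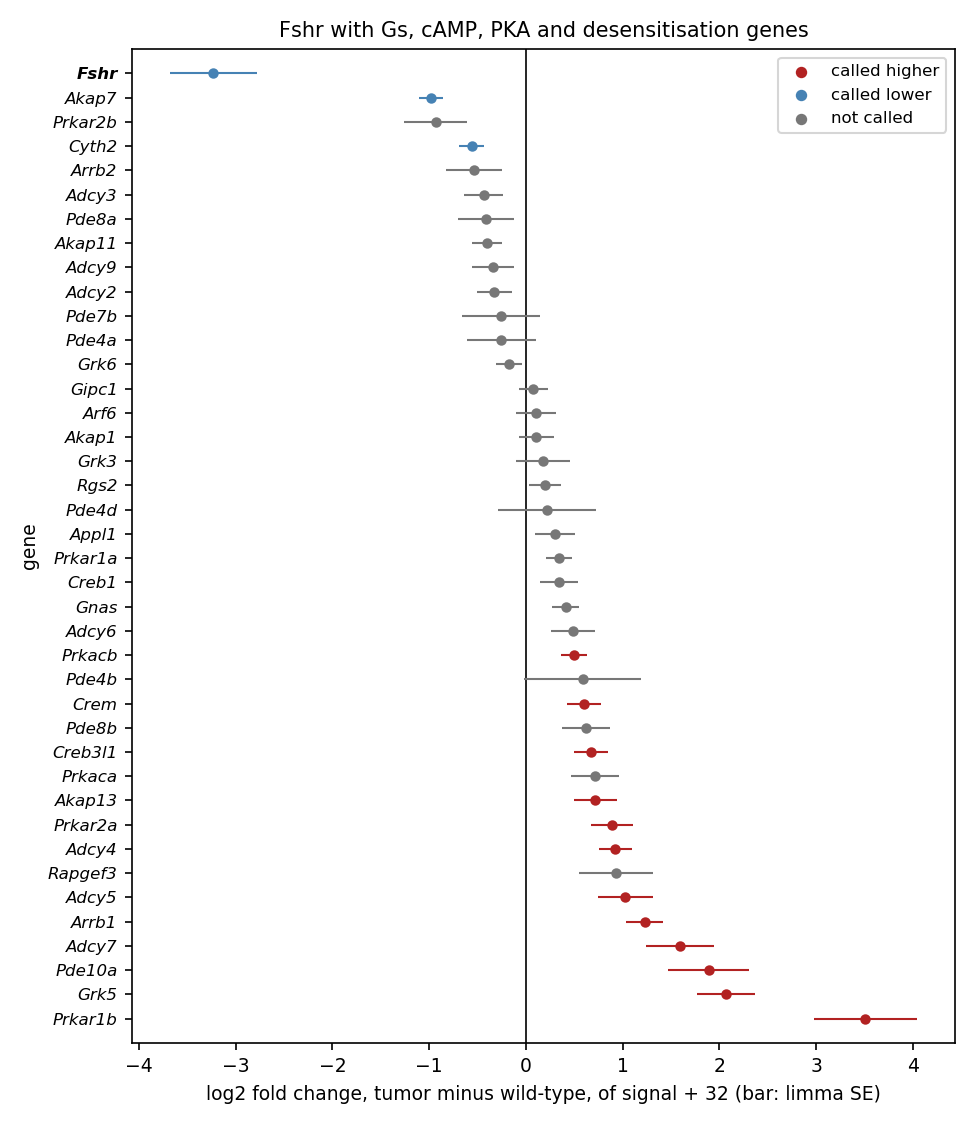
log2 fold change of tumor over wild-type (bars, limma SE) of Fshr and 39 tested genes of Gs, adenylyl cyclase, PKA, receptor desensitisation and cyclic AMP breakdown, coloured by call, with arrays at a common trimmed mean. Fshr stands at -3.23, and the 39 genes run from -0.98 (Akap7) to 3.51 (Prkar1b).

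Most genes that switch off gonadotropin receptors or break down cyclic AMP were not called, as held for all genes tested. Of 17 tested, 3 rose, 1 fell and 13 were not called. Of all 11611 genes tested, 14.5% were higher, 12.6% lower and 8457 not called. Scaling to the hybridisation controls gave 2 higher and 9 lower of the 17, beside 416 higher and 7544 lower of all 11611 genes tested. Grk5, a kinase that phosphorylates active receptors, read 684, 1253 and 1397 in tumors and 222, 179.8 and 298 in wild-type cells (log2 fold change 2.07, SE 0.30, limma adjusted p = 0.00385). Arrb1, the gene of a beta-arrestin that binds phosphorylated receptors, read 674, 760.4 and 500.5 in tumors and 248, 289 and 224 in wild-type cells (log2 fold change 1.23, SE 0.19, limma adjusted p = 0.00515). Both were higher in 3 of 3 tumors. Related genes were not called, with log2 fold changes of -0.53 for Arrb2, 0.18 for Grk3 and -0.17 for Grk6. Grk4 lay below 100 on all arrays. Pde10a, a phosphodiesterase gene, was at least 3.26-fold higher, a call that ended without wild-type replicate 2 (limma adjusted p = 0.0576). Cyth2, which encodes an exchange factor of Arf proteins, fell by 0.56 (SE 0.13), a call that ended without tumor replicate 1 or any 1 wild-type sample (limma adjusted p up to 0.0793).

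Genes that respond to FSH in granulosa cells were called lower more often than higher. Of 20 tested, 1 rose, 9 fell and 10 were not called, beside 14.5% higher and 12.6% lower of all genes tested. The list had a median log2 fold change of -0.79, and between 8 and 10 of it were lower when 1 sample was omitted. Scaling to the hybridisation controls gave 0 higher and 17 lower, beside 416 higher and 7544 lower of all 11611 genes tested. Comp, a matrix gene, read 83, 19.9 and 140.2 in tumors and 11022, 12869 and 8585 in wild-type cells (log2 fold change -6.73, SE 0.42). Inhba, an activin subunit gene, read 273, 548 and 1241 in tumors and 28212, 20087 and 30806 in wild-type cells (log2 fold change -5.42, SE 0.48). In neither gene did the groups overlap. Grem1, which encodes a secreted antagonist of bone morphogenetic proteins, read 87.7, 169 and 43.2 in tumors and 2349, 3046 and 3074 in wild-type cells and fell by 4.54 (SE 0.34). Cyp11a1, the enzyme that opens steroid synthesis from cholesterol, read 298, 247 and 2182 in tumors and 12207, 10750 and 16017 in wild-type cells (log2 fold change -4.45, SE 0.74, limma adjusted p = 0.00638). Among tumors, Comp, Inhba and Cyp11a1 were highest in replicate 3, where Fshr and Grem1 were lowest. Some tumor signals of Comp and Grem1 lay below 100, and this order was not counted over the list. Igf1, a growth factor gene that cooperates with FSH, read 5378, 5000 and 8149 in tumors and 3620, 2744 and 2817 in wild-type cells and was higher by 0.98 (SE 0.23), a call that ended without wild-type replicate 2 or 3 (limma adjusted p = 0.0613 and 0.0654). Ccnd2, the cyclin through which FSH drives granulosa cell division, read 14564, 13431 and 11873 in tumors and 10836, 6685 and 11012 in wild-type cells and was not called (limma adjusted p = 0.135). Cyp19a1 was not analysed here.

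**Figure D4:**
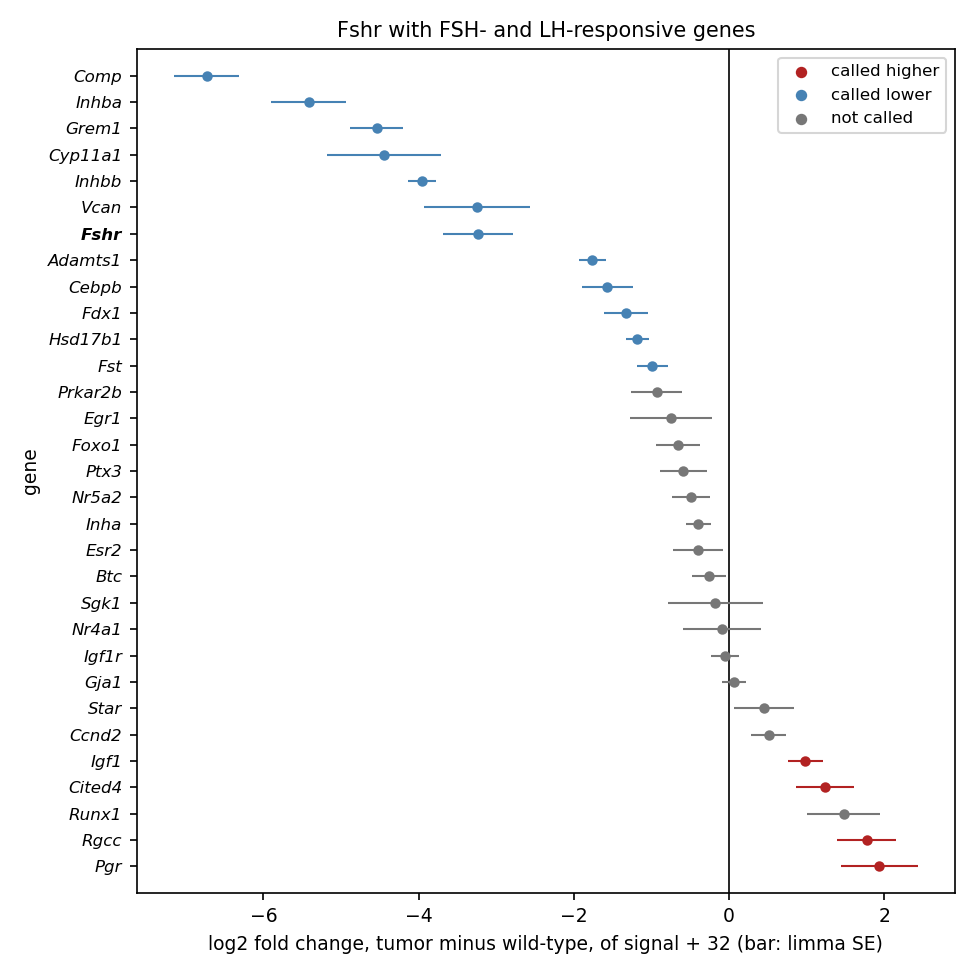
log2 fold change of tumor over wild-type (bars, limma SE) of Fshr and 30 tested genes that respond to FSH or LH, coloured by call, with arrays at a common trimmed mean. Comp, Inhba, Grem1, Cyp11a1, Inhbb and Vcan lie below Fshr (-3.23), and the highest value is that of Pgr (1.93).

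The genes that LH induces in preovulatory follicles held calls in both directions, as did all genes tested. Of 10 tested, 3 were higher, 2 lower and 5 not called, beside 14.5% higher and 12.6% lower of all genes tested. The list had a median log2 fold change of -0.18, and scaling to the hybridisation controls gave it 1 higher and 6 lower. That scaling gave 416 higher and 7544 lower of all 11611 genes tested. At a common trimmed mean the higher count of the list was 1 without tumor replicate 3 or any 1 wild-type sample. Its lower count was 1 without wild-type replicate 3. Pgr, the progesterone receptor gene, read 235, 1192 and 504 in tumors and 108, 104 and 134 in wild-type cells (log2 fold change 1.93, SE 0.49, limma adjusted p = 0.0273). Its call ended without tumor replicate 3 or any 1 wild-type sample (limma adjusted p up to 0.0853). Adamts1, a protease gene that Pgr regulates at ovulation, read 558, 659 and 444 in tumors and 1855, 2085 and 1864 in wild-type cells and fell by 1.76 (SE 0.18). Rgcc, a cell cycle regulator gene, read 6523, 5501 and 2880 in tumors and 1534, 855 and 1879 in wild-type cells and rose by 1.77 (SE 0.38). Ereg, which encodes an EGF-like factor, and Ptgs2, the inducible prostaglandin synthase gene, lay below 100 on all arrays.

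For the prolactin branch, relatives of the receptor and genes below it were measured. Of 4 tested class I cytokine receptor genes 1 was higher and 3 were not called, beside 14.5% higher and 12.6% lower of all genes tested. Scaling to the hybridisation controls gave 0 higher and 2 lower of the 4, beside 416 higher and 7544 lower of all 11611 genes tested. Csf2rb, the shared beta chain of receptors for myeloid growth factors, read 292, 111 and 209.8 in tumors and 54.8, 69.8 and 46.6 in wild-type cells, at least 1.89-fold higher. The call ended without wild-type replicate 1 or 3 (limma adjusted p = 0.0628 and 0.0595). Macrophage markers were higher in the same tumors, as given above, and their part in it was not tested. Ghr, the growth hormone receptor gene, read 3434, 1778 and 2430 in tumors and 2029, 4539 and 2810 in wild-type cells, with overlap (limma adjusted p = 0.6). Il6st, the shared chain of interleukin-6 type receptors, read 2658, 1797 and 1676 in tumors and 1426, 1724 and 1416 in wild-type cells and was not called. Epor, the erythropoietin receptor gene, was called only without tumor replicate 2 among the fits that omit 1 sample (limma adjusted p = 0.0324). Lepr, the leptin receptor gene, read 345, 118 and 88.2 in tumors and 47.5, 68 and 50.1 in wild-type cells, did not overlap and was not tested, and Csf3r did not pass the filter.

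Among 26 tested genes that carry the prolactin signal, 5 were higher, 4 lower and 17 not called, with a median log2 fold change of 0.19. For all genes tested the shares were 14.5% higher and 12.6% lower. Scaling to the hybridisation controls gave 0 higher and 15 lower of the 26, beside 416 higher and 7544 lower of all 11611 genes tested. Without tumor replicates 1, 2 and 3 the lower count was 1, 2 and 2, and without wild-type replicates 1, 2 and 3 the counts were 2 higher and 0 lower, 4 and 3, and 2 and 1. The core genes were not called. Jak2, the kinase bound to the receptor, read 947, 982 and 799 in tumors and 622, 668 and 676 in wild-type cells, all tumors higher (log2 fold change 0.45, SE 0.14, limma adjusted p = 0.0572), and was called without tumor replicate 3 (0.0362). Stat5a read 703, 1067 and 662 in tumors and 1441, 967 and 1380 in wild-type cells, with overlap (limma adjusted p = 0.0932), and was called without tumor replicate 2 (0.0454). Stat5b read 1550, 1339 and 1031 in tumors and 1181, 1339 and 1281 in wild-type cells, with overlap (limma adjusted p = 0.93). Ptpn1, a tyrosine phosphatase gene that acts on Jak2, read 5329, 4902 and 5654 in tumors and 1759, 1728 and 1680 in wild-type cells, without overlap, and was higher by 1.60 (SE 0.13, limma adjusted p = 0.000626). Vav2 was higher by 1.19 (SE 0.25), and the kinase gene Tec was at least 2.21-fold higher. Omitting wild-type replicate 1 or 3 ended the call of Vav2 (limma adjusted p = 0.0628 and 0.051) and that of Tec (0.0557 and 0.0564).

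Of the feedback genes Cish, Socs1 and Socs2, which Stat5 induces, Cish and Socs1 were called lower and Socs2 was not called. Socs3, listed with the genes that carry the prolactin signal, overlapped between groups and was not called (log2 fold change -0.18, limma adjusted p = 0.751). Cish read 225, 217 and 256 in tumors and 435, 318 and 615 in wild-type cells (log2 fold change -0.84, SE 0.23, limma adjusted p = 0.0361), and Socs1 read 40.8, 70.4 and 105 in tumors and 193, 120 and 194 in wild-type cells (log2 fold change -0.97, SE 0.27). Socs2 read 16280, 12467 and 11521 in tumors and 15236, 17010 and 16562 in wild-type cells, with overlap (limma adjusted p = 0.246). The Cish call held, among fits omitting 1 sample, without wild-type replicate 2 alone (otherwise limma adjusted p up to 0.102). The Socs1 call held without tumor replicate 3 or wild-type replicate 2 (otherwise up to 0.125).

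The 14 tested prolactin and Stat5 responsive genes, a list that includes Cish, Socs1 and Socs2, held 3 higher, 6 lower and 5 not called. Among all genes tested 14.5% were higher and 12.6% lower. Scaling to the hybridisation controls gave 2 higher and 10 lower of the 14, beside 416 higher and 7544 lower of all 11611 genes tested. The lower count of the list at a common trimmed mean was 3, 2 and 4 without tumor replicates 1, 2 and 3. It was 2, 5 and 2 without wild-type replicates 1, 2 and 3. Tnfsf11, the RANK ligand gene that prolactin induces in mammary epithelium, read 13.8, 3.38 and 2.18 in tumors and 809, 912 and 1257 in wild-type cells, at least 9.75-fold lower (limma adjusted p = 0.000162). Scarb1, the lipoprotein receptor of steroid-making cells, read 2305, 2416 and 5180 in tumors and 10937, 9249 and 12167 in wild-type cells and fell by 1.79 (SE 0.32). A2m, the alpha-2-macroglobulin gene that prolactin induces in rat luteal cells, read 339, 550.2 and 417 in tumors and 88.8, 97.6 and 119.7 in wild-type cells and rose by 1.78 (SE 0.20). Hsd17b7, known in rat as a protein associated with the prolactin receptor, fell by 1.41 (SE 0.39, limma adjusted p = 0.0351), a call that ended without tumor replicate 1 or 2 or wild-type replicate 1 or 3 (up to 0.106). Akr1c18, the progesterone-degrading enzyme gene that prolactin represses in luteal cells, read 1522, 155 and 7507 in tumors and 158, 114 and 106 in wild-type cells. Tumor replicate 2 lay within the wild-type range, and Akr1c18 was not called (limma adjusted p = 0.0938) except, among fits omitting 1 sample, without that tumor (0.00641). The milk protein genes Csn2, Csn1s1 and Wap lay below 100 on all arrays.

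Factors known to act on the receptor genes were read in the same samples. Of 16 tested, 3 were higher, 3 lower and 10 not called, beside 14.5% higher and 12.6% lower of all genes tested. The list had a median log2 fold change of -0.13, and scaling to the hybridisation controls gave it 1 higher and 11 lower. That scaling gave 416 higher and 7544 lower of all 11611 genes tested. Usf1 and Usf2, the factors of the E-box shown above, were not called. Usf1 read 328, 266 and 248 in tumors and 359, 439 and 342 in wild-type cells, all tumors lower (limma adjusted p = 0.12), and Usf2 read 1042, 989 and 683 in tumors and 722, 1031 and 704 in wild-type cells, with overlap (limma adjusted p = 0.684). Nr5a1, an orphan nuclear receptor of steroidogenic cells that acts on the Fshr promoter in rodents, read 1384, 786 and 1210 in tumors and 2200, 2713 and 2248 in wild-type cells. It fell by 1.09 (SE 0.23, limma adjusted p = 0.0143), with all tumors below. Mvk, the mevalonate kinase that binds LH receptor mRNA in rat ovary, read 292, 403 and 350.2 in tumors and 950.2, 626 and 901 in wild-type cells and fell by 1.16 (SE 0.21, limma adjusted p = 0.00794). Wt1, a zinc finger factor of gonadal cells, read 2690, 1769 and 2306 in tumors and 401, 587 and 386 in wild-type cells and rose by 2.23 (SE 0.23). Cebpb, which LH induces in granulosa cells, fell by 1.57 (SE 0.33), a call that ended without wild-type replicate 3 (limma adjusted p = 0.0507). Nr2f2, an orphan nuclear receptor of stromal cells, was higher by 1.49 (SE 0.31), a call that ended without wild-type replicate 1 (limma adjusted p = 0.0567).

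Mirg, Ihh and Cacna1a had the profiles over the 6 arrays most like that of Fshr, by the root mean square distance of log2(signal + 32) after each gene was centred on its mean (0.26, 0.27 and 0.29). Ihh, the Indian hedgehog ligand made by granulosa cells, read 744, 280 and 96.5 in tumors and 2652, 3521 and 2744 in wild-type cells and fell by 3.24 (SE 0.58, limma adjusted p = 0.0082). Its tumors stood in the order of Fshr, which the choice by profile on these same arrays favours. Mirg, a noncoding gene of the imprinted Dlk1 and Meg3 region, read 65.8, 61.2 and 11.2 in tumors and 562, 705 and 466 in wild-type cells, at least 5.69-fold lower. Cacna1a, a calcium channel subunit gene, read 78.8, 62.4 and 11 in tumors and 1031, 657 and 778 in wild-type cells, at least 8.07-fold lower. All tumor signals of Mirg and Cacna1a lay below 100, so no order among tumors is read from them. Their distances from Fshr rest in part on those signals, which limits their rank. The tumor order of Fshr, replicate 1 over 2 over 3, was that of 250 of the 1468 genes called lower (17.03%), genes with tumor signals below 100 included. As 3 tumors can stand in 6 orders, this share does not set the order apart.

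Genes near Fshr on chromosome 17 in RefSeq order, chosen by position, gave low signals. Ston1, Gtf2a1l and Adcyap1 had at most 1 array above 100 and were not tested. Mettl4 read 119, 164 and 154 in tumors and 202, 213 and 273 in wild-type cells, all tumors lower, and was not called (log2 fold change -0.55, SE 0.18, limma adjusted p = 0.0545).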

How the data were processed

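Expression was measured on 1 Affymetrix array per sample, 6 in all. The deposited values are linear intensities, 1 per probe set, which the authors made with MAS5 for wild-type arrays and GCOS for tumor arrays, per the submitters' processing notes; versions are not given in the notes. Every deposited array already had a trimmed mean (2% off each end) of 500, to which arrays were rescaled. Background correction was not varied, since probe-level data were not used here.

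Of 45101 probe sets, 64 were controls, 34945 had 1 symbol in GEO's platform annotation, 932 had several and 9160 were unnamed here. The RefSeq table of GRCm38.p6 held the Entrez identifiers of 34741 and changed 0 symbols. Probe sets that reached a signal of 100 on 3 or more arrays were tested as log2(signal + 32) with limma 3.58.1 in R 4.3.3 (lmFit, eBayes, 2-sided, Benjamini-Hochberg), and the brightest passing probe set stood for its gene. Fold changes on this scale understate those of weak genes. A fold is written "at least" where 1 group was below 100 on each array, and is then taken against 100. Tables and figures used Python 3.11.15, pandas 2.3.3 and matplotlib 3.10.9, and the fit was tested on simulated data. Numbers of the labels did not pair the samples.

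The members and 21 lists (280 entries, 264 named on the array, 223 tested) were chosen with earlier results of these data known. Lists are described by counts, with no test of a list. The rule for named genes took the receptor and ligand lists and lists of 8 or fewer entries whole. From each other list it took the 3 called genes with the largest change and the largest in the other direction (with 0 called, the smallest p). It added a set of fixed names and the 3 profiles most like Fshr. Vcan, Hsd17b1, Ereg, Ptgs2, Bmp15, Nobox, Arrb2, Grk3, Grk4, Grk6, Socs3, the milk protein genes and the neighbours of Fshr fall outside it. They were chosen after their values were seen.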

Additional observations from a re-analysis of the deposited data

How the results depend on the processing

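Fshr stayed lower in tumors and called under the alternatives run: values as deposited, quantile normalization, scaling to the hybridisation controls, pseudocounts of 1 and 100, a filter at 200, no filter, an intensity trend in limma, the mean of passing probe sets, the replicate block, and each sample omitted in turn. Its log2 fold change ran from -4.22 (hybridisation controls) to -3.07 (pseudocount 100), and from -3.64 (without tumor replicate 1) to -2.67 (without tumor replicate 3), with limma adjusted p from 0.0009 to 0.018 in the fits without 1 sample. Scaling to the hybridisation controls moved the median of all genes to -0.98 and gave 416 genes higher and 7544 lower (685 and 15570 probe sets), so that 5.23% of called genes were higher, against 53.5% at a common trimmed mean; the cause was not tested. Without a filter 1650 probe sets were higher and 1682 lower. With 1 sample omitted, 866 to 1704 genes were higher and 662 to 1409 lower, the fewest without wild-type replicate 1, and 1092 were higher and 880 lower without wild-type replicate 3. For probe sets the ranges were 1272 to 2476 higher and 1105 to 2446 lower, and without tumor replicate 2 there were 1755 higher and 1879 lower. With the replicate number as a block, 1464 genes were higher and 1138 lower and Fshr kept its call (log2 fold change -3.23, limma adjusted p = 0.0068). Deviations of same-numbered samples correlated at -0.04, 0.03 and 0.09 across genes, and 3 of 6 samples correlated best with their own number. Tests of Lhcgr and of Prlr gave no value, nor did a test between probe sets of 1 receptor gene, since Fshr has 1. Signals near 100 limit Tshr, Cga, Mirg and Cacna1a more than Fshr.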
